A study of Saccharomyces cerevisiae with 44 samples.

Results

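The RNAs bound by Hpr1 and Yra1 together were set against a mock pulldown from a strain without a tag, in wild-type cells of the budding yeast Saccharomyces cerevisiae. The comparison rests on 6 of the 30 libraries of the count table, 3 replicates of the Hpr1-PrA pulldown and 3 of the no tag pulldown, chosen by their column names. Both strains have the BY4741/2 background (MATa his3Δ1 leu2Δ0 lys2Δ0 met15Δ0 ura3Δ0) and both carry SNAPf-YRA1, so the SNAPf-tagged Yra1 is shared by the control. The Hpr1 strain also carries HPR1-PPX-PrA, a fusion to protein A with a protease site between them. Cells grew in YPD at 30 °C, lysates were crosslinked with 0.2% formaldehyde, complexes were captured on IgG beads, released with HRV3C protease and purified again with an antibody to Yra1. The no tag lysate went through both steps, and what it yields is the RNA that comes along without protein A. Total RNA was taken from 7.5% of each lysate, and a Cbp80-PrA strain went through the same pair of pulldowns.

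Hpr1 is a subunit of the THO complex, which is loaded on nascent transcripts and, with the DEAD-box ATPase Sub2 and the RNA-binding adaptor Yra1, forms TREX, the assembly that links transcription to export of mRNA through the nuclear pore. Yra1 binds mRNA and is displaced as the export receptor Mex67-Mtr2 is recruited. Cbp80, encoded by STO1, is, with Cbp20, the nuclear cap-binding complex, which is loaded on the capped end of every RNA polymerase II transcript. A pulldown of Hpr1 followed by Yra1 therefore draws on nuclear RNPs that hold both proteins.

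The Hpr1-PrA pulldowns held 78186, 140468 and 98504 counts on genes, against 61858, 71037 and 44389 in the no tag pulldowns, each count being a 3′ tag from 1 molecule after removal of PCR duplicates. A single count was worth 7.12 to 12.8 CPM (the count relative to the total of its library) in the Hpr1-PrA libraries and 14.1 to 22.5 CPM in the no tag libraries, and 5274 to 5623 genes had a count in the Hpr1-PrA libraries against 3870 to 4409 in the no tag libraries. Values per gene below are scaled CPM, that is CPM after edgeR's TMM scaling, on which the fold changes also rest. Across 1517 genes, log values correlated at Pearson's r of 0.88 to 0.94 among the Hpr1-PrA libraries, 0.89 to 0.91 among the no tag libraries and 0.54 to 0.65 between the groups, as a description across genes. Of 6 MATa-specific genes, 5 had counts in all 6 libraries, such as MFA2, which encodes a-factor, with 115, 218 and 256 counts in Hpr1-PrA pulldowns and 121, 262 and 143 in no tag pulldowns, while ASG7 had 0 in all 6. Of 4 MATalpha-specific genes, MF(ALPHA)1 had 0 counts in all 6, MF(ALPHA)2 and STE3 had 1 count each in 1 library, and SAG1, the alpha-agglutinin, had 2, 6 and 4 in Hpr1-PrA pulldowns and 0 in each no tag pulldown, with 6, 14 and 9 in Hpr1-PrA and 10, 17 and 13 in no tag total RNA. Of the 5 marker genes deleted in the background, URA3, LEU2, LYS2 and MET17 had 0 counts in all 6, which allows up to 3 counts per library. HIS3, which his3Δ1 removes only in part, had 4, 14 and 10 counts in Hpr1-PrA pulldowns and 13, 10 and 3 in no tag pulldowns. Its scaled levels overlapped, and it was called lower (log2 fold change -1.31 ± 0.47 (SE), adjusted p = 0.0219), a call lost with median-ratio factors (-1.02), total counts (-0.65) and DESeq2 (-1.03), and without no tag replicate 1 (-0.96), no tag replicate 2 (-1.29), Hpr1-PrA replicate 1 (-0.97) or Hpr1-PrA replicate 2 (-1.32).

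Of 2997 genes with enough counts to be tested, 615 were higher in the Hpr1-PrA pulldown (20.5% of those tested) and 509 were lower (17.0%), by edgeR's quasi-likelihood test (adjusted p below 0.05 with a log2 fold change over 1 or under -1). The median log2 fold change over all tested genes was 0.24. Lower here means a smaller part of the pulled-down RNA, since the values are relative to each library's total and the yield of the pulldowns is not in the counts, so fewer cells, less RNA per cell and less bound RNA cannot be told apart. The filter took a gene with enough counts in any 3 of 15 pulldown libraries, Cbp80-PrA included, so that a low gene in no tag could enter through the libraries where it was high, and counts over lists below are of tested members only. The balance of the calls depended on the scaling: 54.7% of calls were higher with TMM, 71.9% with median-ratio factors, 89.4% with total counts alone and 69.0% with DESeq2. All 615 genes stayed higher under both other scalings, whereas 336 of the 509 lower genes stayed lower with median-ratio factors and 139 with total counts, and no gene was called in the opposite direction. Those scalings moved the median of all genes to 0.53 and 0.90, so the medians of gene lists are best read against the median of all tested genes.

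Among the proteins of the export pathway itself, the outcome differed from gene to gene. YRA1 (YDR381W) mRNA, itself a spliced and autoregulated transcript, had 171, 274 and 316 scaled CPM in Hpr1-PrA pulldowns and 44.7, 194 and 348 in no tag pulldowns. The groups overlapped and the test did not pass (log2 fold change 0.51 ± 0.47 (SE), adjusted p = 0.396). Without no tag replicate 1, in which YRA1 was lowest, the log2 fold change was -0.0020, and with total counts it was 1.17 and was called. HPR1 mRNA had 9, 11 and 5 counts in Hpr1-PrA pulldowns and 2, 0 and 1 in no tag pulldowns, a scaled ratio of 3.10 (95% counting interval 0.947 to 16.1) that did not pass the test (edgeR adjusted p = 0.0979) but was called with median-ratio factors or total counts. The HPR1 gene carries the protein A tag only in the Hpr1-PrA strain, and the effect of the tag on its 3′ tag counts was not tested.

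MFT1 (YML062C), a THO subunit, had 979, 802 and 569.9 scaled CPM in Hpr1-PrA pulldowns, against 201, 172 and 94.8 in no tag pulldowns. Every Hpr1-PrA library was above every no tag library (log2 fold change 2.26 ± 0.36 (SE), adjusted p = 6.51e-07). THP2, another THO subunit, did not pass (log2 fold change 0.25 ± 0.53 (SE), adjusted p = 0.737). THO2, the largest THO subunit, had too few counts to be tested, with 5, 18 and 12 in Hpr1-PrA pulldowns and 0 in each no tag pulldown, at least 4.35-fold higher when the no tag group is set to 3 counts in all, and overlaps another gene on the same strand.

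SUB2 (YDL084W), the ATPase that joins THO to Yra1, went the other way, with 171, 334 and 488 scaled CPM in Hpr1-PrA pulldowns and 693, 840.2 and 1327 in no tag pulldowns. It was called lower (log2 fold change -1.47 ± 0.30 (SE), adjusted p = 1.45e-04), although with total counts its log2 fold change was -0.82 and the call was lost. Of the 7 tested members of a list of THO and TREX genes, 2 were higher (28.6%) and 1 was lower (14.3%), with a median log2 fold change of 0.51. All tested genes had 20.5% higher and 17.0% lower, so this small list was near the background.

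The wider list of mRNP assembly and export factors had 4 of 15 tested members higher (26.7%) and 2 lower (13.3%), with a median of 0.54. These shares are near the 20.5% and 17.0% of all tested genes, whose median was 0.24. HRB1, an SR-like protein that travels with THO, had 918, 1089 and 814 scaled CPM in Hpr1-PrA pulldowns and 313, 323 and 284 in no tag pulldowns (log2 fold change 1.61 ± 0.30 (SE), adjusted p = 1.12e-05). Its paralogue GBP2 was not called (log2 fold change 0.38 ± 0.36 (SE), adjusted p = 0.409). NPL3, an SR-like mRNA-binding protein, was higher (log2 fold change 1.68 ± 0.39 (SE), adjusted p = 4.49e-04), as was MLP1, a nuclear basket filament (log2 fold change 1.65 ± 0.46 (SE), adjusted p = 0.00349), whose log2 fold change was 1.11 and no longer called without no tag replicate 2. DBP5, the ATPase that strips export factors at the cytoplasmic side of the pore, and SEM1, a small subunit of TREX-2, were called lower at -1.02 and -1.02, at the very edge of the fold threshold. Both calls were lost with other scalings (-0.73 and -0.74 with median-ratio factors) and without any single Hpr1-PrA library (-0.91 to -0.87).

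The clearest order among the 2862 tested nuclear coding genes was by the length of the coding sequence. Genes called higher had a median coding length of 1798.5 nt and genes called lower one of 573 nt, against 1206 nt for genes called in neither direction. Of 242 genes of 3000 nt or more, 94 were higher (38.8%) and 0 lower, with a median log2 fold change of 0.96. At the other end, of 437 genes under 500 nt, 22 were higher (5.03%) and 205 lower (46.9%), with a median of -1.17. The classes between lay in order: the median was -0.42 in the class from 500 to under 1000 nt, 0.34 from 1000 nt, 0.77 from 1500 nt and 0.97 from 2000 to under 3000 nt, close to the 0.96 of the longest class. The share called higher was 8.10%, 18.9%, 29.9% and 37.0% in those 4 classes, and the share called lower was 28.2%, 8.52%, 4.27% and 3.87%.

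Per library, the mean coding length behind a count was 1321, 1400 and 1317 nt in Hpr1-PrA pulldowns and 928, 852 and 866 nt in no tag pulldowns. The groups did not overlap, and with 3 against 3 libraries a two-sided exact permutation test cannot go below p = 0.10, which it reached here and in each of the 18 shares and means compared (adjusted p = 0.10). Genes under 500 nt took 22.1% ± 2.15 of the coding counts in Hpr1-PrA pulldowns and 40.1% ± 2.67 in no tag pulldowns, while genes of 3000 nt or more took 7.68% ± 0.573 in Hpr1-PrA pulldowns and 2.88% ± 0.316 in no tag pulldowns (SD, n = 3 each). In total RNA the mean coding length per count was 1728 nt in Hpr1-PrA and 1703 nt in no tag, above every pulldown library.

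**Figure D1:**
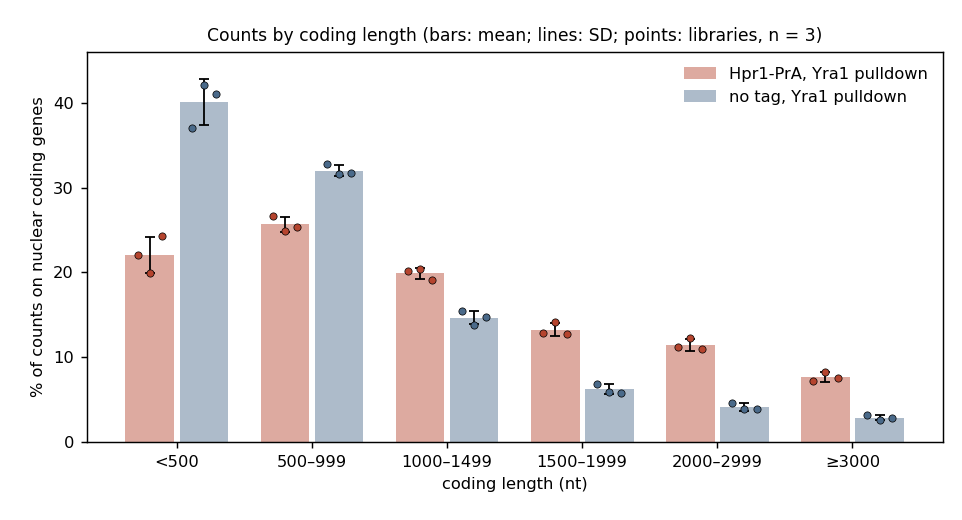
Share of the counts on nuclear coding genes (y axis, %) by coding length in nt (x axis) in the Hpr1-PrA and no tag Yra1 pulldowns, with bars for the mean of 3 libraries, lines for the SD and points for libraries. The Hpr1-PrA bars are lower in the 2 classes under 1000 nt and higher in the 4 classes above, with no overlap of points in any class.

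The abundant, short ribosomal protein mRNAs did not carry the pattern alone. Without them, 6.18% of 356 genes under 500 nt were higher and 40.4% lower, with a median of -0.90, and the mean coding length per count was 1564 nt in Hpr1-PrA pulldowns against 1207 nt in no tag pulldowns. When genes were split into 3 equal groups by their level in total RNA, the ends kept their order inside each: the median ran from -1.61 under 500 nt to 0.85 at 3000 nt or more in the group of highest level, and from -0.51 to 1.14 in the group of lowest level. Across genes, the Spearman correlation of the log2 fold change with coding length was 0.51, with GC content -0.13 and with the total RNA level -0.19, given as a description over genes that share the same libraries. Total counts in place of TMM moved all medians up and kept the order: 161 of the longest genes were then higher and 0 lower, against 49 higher and 74 lower among those under 500 nt. In total RNA the class medians lay between -0.06 and 0.03.

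**Figure D2:**
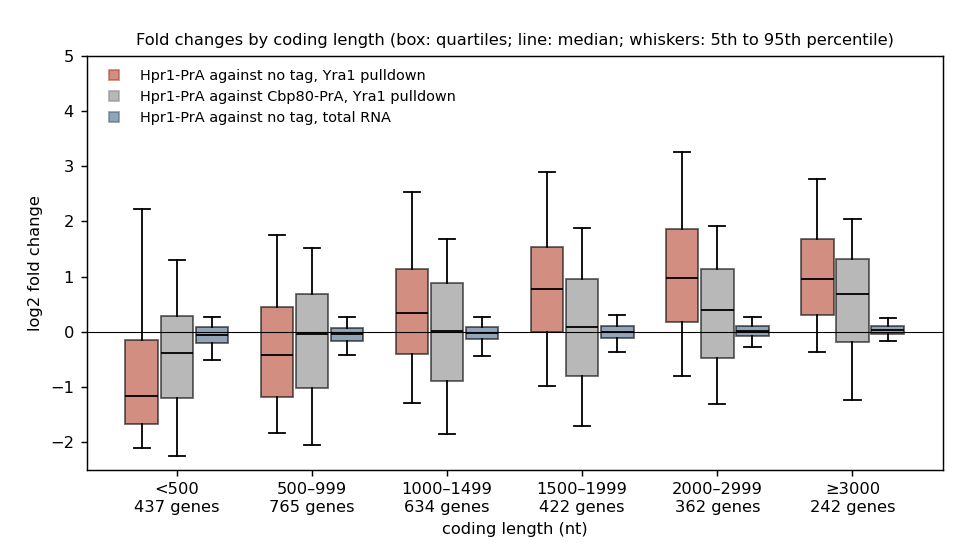
Log2 fold change (y axis) by coding length in nt (x axis, with the number of tested genes) for the Hpr1-PrA pulldown against no tag, the Hpr1-PrA pulldown against the Cbp80-PrA pulldown, and Hpr1-PrA against no tag in total RNA; boxes are quartiles and whiskers the 5th to 95th percentile. The medians run from -1.17 to 0.97 against no tag, from -0.39 to 0.69 against Cbp80-PrA and stay within -0.06 and 0.03 in total RNA.

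Several mRNAs called higher encode proteins of the plasma membrane, though larger fitted fold changes were found in other genes, such as NTH1 and SSD1. PMA1 (YGL008C), the essential proton pump that sets the membrane potential, had 8004, 9152 and 8579.5 scaled CPM in Hpr1-PrA pulldowns and 581, 797 and 537 in no tag pulldowns. No library of one group came near the other, with a log2 fold change of 3.74 ± 0.26 (SE, edgeR adjusted p = 4.71e-19), and its change in total RNA was 0.09 on the log2 scale.

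HXT3 (YDR345C), a low-affinity glucose carrier used on rich medium, had 5483, 5685 and 5679 scaled CPM in Hpr1-PrA pulldowns and 1028, 969 and 663 in no tag pulldowns (log2 fold change 2.65 ± 0.25 (SE), adjusted p = 1.99e-13). HXT4, a related carrier, was higher as well (log2 fold change 2.02 ± 0.35 (SE), adjusted p = 3.87e-06). The 5 tested hexose transporters had a median of 2.02, with 3 higher and 0 lower. Neither HXT3 nor HXT4 matched another gene at 90% identity or more over 100 nt or more, the threshold used here for a near-identical copy.

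The amino acid permeases moved in the same direction, with 6 of 13 tested members higher, 0 lower and a median of 1.34, or 1.01 when the member with 0 no tag counts is set at its bound. DIP5, which takes up dicarboxylic amino acids, had 404, 488 and 336 scaled CPM in Hpr1-PrA pulldowns and 179, 43.1 and 63.2 in no tag pulldowns (log2 fold change 2.08 ± 0.42 (SE), adjusted p = 5.33e-05). HIP1, the histidine permease, had a log2 fold change of 2.33 ± 0.57 (SE, edgeR adjusted p = 8.54e-04).

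Of 22 tested ion, metal and other transporters, 9 were higher and 1 lower. PDR12, an efflux pump for weak acids, had 24, 46 and 34 counts in Hpr1-PrA pulldowns and 1, 0 and 0 in no tag pulldowns, a scaled ratio of 38.8 (95% counting interval 6.80 to 1545). The exception was FET3, the multicopper oxidase of iron uptake, which was lower (log2 fold change -1.55 ± 0.38 (SE), adjusted p = 7.89e-04), and at -0.89 was not called with total counts.

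Stretches long and hydrophobic enough to cross a membrane were counted in the RefSeq protein sequences, and genes with 6 or more of them stood apart. Of 147 genes with 6 or more, 56 were higher (38.1%) and 2 lower (1.36%), with a median of 1.01, whereas of 2028 genes with none, 17.8% were higher and 19.5% lower, with a median of 0.09. These proteins are also long, and within a length class the difference was uneven. From 1500 to under 2000 nt, 30 of 62 genes with 6 or more stretches were higher (48.4%), against 68 of 270 with none (25.2%). From 2000 to under 3000 nt the shares were 29.6% and 38.5%, and at 3000 nt or more 43.5% and 41.2%. The genes with 6 or more stretches took 5.71% ± 0.398 of the counts on nuclear coding genes in Hpr1-PrA pulldowns and 1.68% ± 0.126 in no tag pulldowns (SD, n = 3 each). In Cbp80-PrA pulldowns they took 6.03% ± 0.214. Against Cbp80-PrA, 12.9% of them were higher and 22.4% lower, where all tested genes had 19.2% and 22.9%.

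Cell wall and GPI-anchored proteins were among the lists with the most higher genes, with 22 of 38 tested members higher, 1 lower and a median of 1.46 at a median coding length of 1341 nt. SCW11, a glucanase-like wall protein that acts as daughter cells separate, had 563, 875 and 834 scaled CPM in Hpr1-PrA pulldowns and 44.7, 21.5 and 63.2 in no tag pulldowns (log2 fold change 4.20 ± 0.48 (SE), adjusted p = 1.91e-10). PIR1, a wall protein with internal repeats, had 16, 46 and 24 counts in Hpr1-PrA pulldowns and 1, 1 and 1 in no tag pulldowns, a ratio of 10.7 (95% counting interval 3.53 to 52.8). SKN1, which takes part in beta-glucan synthesis, had a ratio of 19 (95% counting interval 3.26 to 765). The member that was lower was BGL2, a glucan-processing enzyme of the wall (log2 fold change -1.24 ± 0.41 (SE), adjusted p = 0.0114). Its call was lost with each other scaling (-0.96 and -0.58), without no tag replicate 3 (-0.79) and without Hpr1-PrA replicate 1 (-0.97).

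Reserve carbohydrates gave the largest share of higher genes among the lists plotted, with 11 of 17 tested genes of trehalose and glycogen metabolism higher, 0 lower and a median of 1.88, or 1.86 with the 2 members at 0 in no tag set at their bounds. NTH1, the neutral trehalase, had 13, 25 and 10 counts in Hpr1-PrA pulldowns and 0 in each no tag pulldown, at least 5.96-fold higher. TPS2, the trehalose-6-phosphate phosphatase, had 6, 25 and 21 counts in Hpr1-PrA pulldowns and 0, 1 and 0 in no tag pulldowns, a ratio of 19.4 (95% counting interval 3.33 to 779.8). The members are long for yeast, with a median coding length of 2256 nt.

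Glycolysis was mixed, with 8 of 20 tested genes higher and 4 lower. HXK1, a hexokinase, was higher, with 318, 474 and 580.1 scaled CPM in Hpr1-PrA pulldowns and 44.7, 172 and 31.6 in no tag pulldowns (log2 fold change 2.37 ± 0.42 (SE), adjusted p = 6.77e-06). GLK1, the glucokinase, had a ratio of 7.70 (95% counting interval 2.52 to 38.4). The abundant mRNAs of later steps lay on the other side. TDH3, the major glyceraldehyde-3-phosphate dehydrogenase, had 11896, 11971 and 16884 scaled CPM in Hpr1-PrA pulldowns and 25114, 37743 and 31588 in no tag pulldowns (log2 fold change -1.21 ± 0.18 (SE), adjusted p = 2.30e-07). ENO2, an enolase, had 7759.6, 7094 and 8783 scaled CPM in Hpr1-PrA pulldowns and 17942, 21564 and 19900.2 in no tag pulldowns (log2 fold change -1.33 ± 0.20 (SE), adjusted p = 1.52e-07). Neither the TDH3 call nor the ENO2 call was kept with total counts, where the log2 fold changes were -0.56 and -0.68. The TDH3 call was also lost with median-ratio factors (-0.94) and without Hpr1-PrA replicate 1 (-0.99), and both genes have close copies in the genome.

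Heat shock proteins and chaperones had 13 of 47 tested members higher (27.7%) and 11 lower (23.4%), against 20.5% and 17.0% of all tested genes. HSP104, the disaggregase, had 2068, 1710.1 and 1995 scaled CPM in Hpr1-PrA pulldowns and 246, 280.1 and 94.8 in no tag pulldowns (log2 fold change 3.14 ± 0.32 (SE), adjusted p = 6.95e-12). BTN2, which gathers misfolded proteins, was also higher (log2 fold change 3.24 ± 0.51 (SE), adjusted p = 2.08e-05), as was KAR2, the HSP70 of the endoplasmic reticulum (log2 fold change 1.68 ± 0.40 (SE), adjusted p = 7.97e-04). The lower members named here are small proteins: YKE2 and GIM5, subunits of prefoldin, had log2 fold changes of -2.74 ± 0.64 and -2.31 ± 0.52 (SE; edgeR adjusted p = 0.00115 and 2.96e-04), and HSP26 had -1.43 ± 0.47 (adjusted p = 0.0115), a call lost without no tag replicate 3 (-0.92) and with total counts (-0.78). A list of general stress genes had 6 of 28 tested members higher and 4 lower, close to all genes tested, with a median of 0.57, or 0.20 with the 2 members at 0 in no tag set at their bounds.

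**Figure D3:**
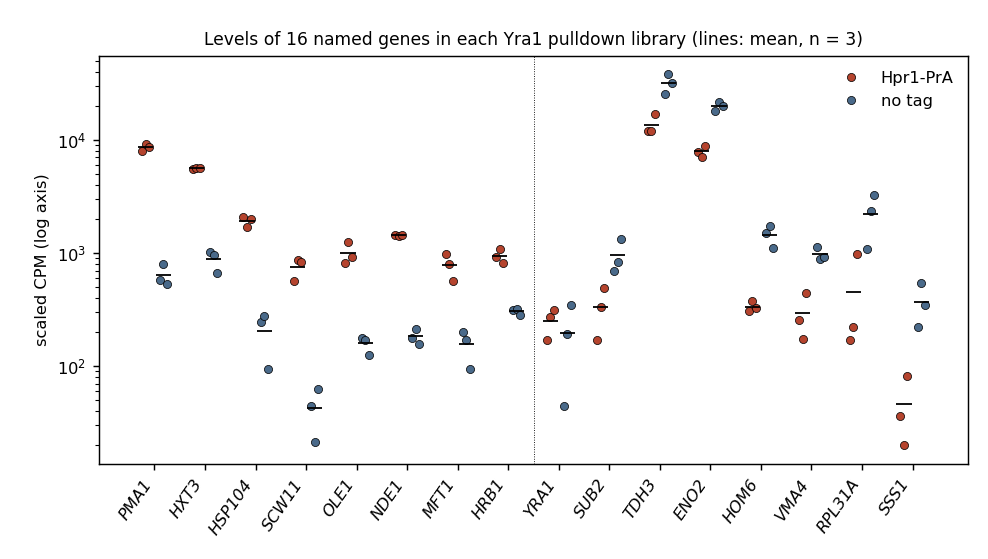
Scaled CPM on a log axis of 16 named genes in each Hpr1-PrA and no tag Yra1 pulldown library, with lines for the mean (n = 3). The 8 genes at left were called higher, YRA1 overlaps between the groups, and the 7 genes from SUB2 rightward were called lower; the PMA1 points sit at 8004, 9152 and 8579.5 in Hpr1-PrA and 581, 797 and 537 in no tag.

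Other long mRNAs stood high as well. OLE1, the fatty acid desaturase, had 820.0, 1249 and 926 scaled CPM in Hpr1-PrA pulldowns and 179, 172 and 126 in no tag pulldowns (log2 fold change 2.63 ± 0.32 (SE), adjusted p = 2.37e-09), and NDE1, the external NADH dehydrogenase of mitochondria, had 1456, 1403 and 1435 scaled CPM in Hpr1-PrA pulldowns and 179, 215 and 158 in no tag pulldowns (log2 fold change 2.93 ± 0.32 (SE), adjusted p = 4.26e-11). In both genes the lowest Hpr1-PrA library was far above the highest no tag library. RNR1, the large subunit of ribonucleotide reductase, had 31, 65 and 22 counts in Hpr1-PrA pulldowns and 2, 0 and 0 in no tag pulldowns, a ratio of 22.0 (95% counting interval 5.95 to 184). TYW1, an enzyme of wybutosine synthesis in tRNA, had a ratio of 24.8 (95% counting interval 6.73 to 207). SSD1, an RNA-binding translational repressor of wall protein mRNAs, had 15, 19 and 10 counts in Hpr1-PrA pulldowns and 0 in each no tag pulldown, at least 5.46-fold higher. IRA2, a very long gene of 9240 nt that encodes a Ras GTPase-activating protein, was higher (log2 fold change 1.96 ± 0.60 (SE), adjusted p = 0.00735), whereas REA1 (MDN1), with 14733 nt the longest gene named here and an AAA ATPase of ribosome assembly, was not called (log2 fold change 0.48 ± 0.37 (SE), adjusted p = 0.295). TAO3, a scaffold of the RAM signalling network, had too few counts to be tested, with 6, 12 and 4 in Hpr1-PrA pulldowns and 1, 0 and 0 in no tag pulldowns, a ratio of 8.20 (95% counting interval 1.32 to 338).

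Chromatin remodellers and coactivators had 10 of 29 tested members higher (34.5%) and 0 lower, with a median of 0.72 at a median coding length of 2397 nt. Nuclear pore genes had 5 of 19 higher (26.3%) and 1 lower (5.26%), where all tested genes had 20.5% and 17.0%. TUP1, the general corepressor, had 11, 31 and 27 counts in Hpr1-PrA pulldowns and 1, 1 and 0 in no tag pulldowns, a ratio of 12.9 (95% counting interval 3.43 to 108). Among 22 tested subunits of RNA polymerase II and elongation factors, 3 were higher (13.6%) and 4 lower (18.2%), near the shares of all tested genes. The named members divided by size. SPT5, a long elongation factor, had a ratio of 19.6 (95% counting interval 6.59 to 96.2) and TFG1, the large subunit of TFIIF, was higher (log2 fold change 1.72 ± 0.32 (SE), adjusted p = 1.32e-05), whereas the small polymerase subunits RPB8 and RPB11 were lower, at -1.84 ± 0.32 and -1.54 ± 0.35 on the log2 scale (SE; edgeR adjusted p = 5.08e-06 and 3.15e-04). SEH1, a small nucleoporin, was the member of the pore that was lower (log2 fold change -1.50 ± 0.33 (SE), adjusted p = 2.14e-04). With total counts RPB11 and SEH1, at -0.88 and -0.84, were not called.

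Some histone genes lay outside the order by length. HTA1, an H2A gene of 399 nt, had 2301, 1790.2 and 1740.3 scaled CPM in Hpr1-PrA pulldowns and 223, 345 and 411 in no tag pulldowns (log2 fold change 2.59 ± 0.29 (SE), adjusted p = 1.12e-10), and HTA2, its near-identical partner, was higher too (log2 fold change 1.76 ± 0.27 (SE), adjusted p = 2.02e-07). In all, 4 of 10 tested histone genes were higher and 0 lower, with a median of 0.14. Against Cbp80-PrA, 0 of the 10 were higher and 5 lower. Since 6 of these genes have near-identical copies, counts may be split or lost among them.

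Ribosome biogenesis genes were close to the background, with 11 of 73 tested members higher, 6 lower and a median of 0.20. NOG1, a GTPase of the large subunit's assembly, was higher (log2 fold change 2.7 ± 0.61 (SE), adjusted p = 3.29e-04), and RIO2, a kinase of the small subunit's assembly, was lower (log2 fold change -1.64 ± 0.41 (SE), adjusted p = 9.37e-04), though not with total counts (-0.98).

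The mRNAs of ribosomal proteins made up the largest block of lower genes, with 104 of 131 tested members lower, 0 higher and a median log2 fold change of -1.72. They took 19.1% ± 2.22 of gene counts in Hpr1-PrA pulldowns and 42.9% ± 2.12 in no tag pulldowns (SD, n = 3 each), against 13.1% in Hpr1-PrA and 13.7% in no tag total RNA. The Hpr1-PrA pulldown lay nearer to total RNA than the no tag pulldown did. RPL31A (YDL075W), of the large subunit, had 171, 220.4 and 977 scaled CPM in Hpr1-PrA pulldowns and 1095, 2327 and 3222 in no tag pulldowns (log2 fold change -2.27 ± 0.68 (SE), adjusted p = 0.0215). Its call was lost with total counts (-1.63) and without no tag replicate 2 (-2.23), no tag replicate 3 (-1.93), Hpr1-PrA replicate 1 (-1.78) or Hpr1-PrA replicate 2 (-1.81). RPS21A, of the small subunit, had 122, 147 and 285 scaled CPM in Hpr1-PrA pulldowns and 559, 1120.2 and 1106 in no tag pulldowns (log2 fold change -2.32 ± 0.56 (SE), adjusted p = 0.00620). Near-identical copies exist for 94 of these genes, so levels of single members are uncertain. In the list, 93 were lower with median-ratio factors and 51 with total counts, where 2 were higher.

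Other lists in which lower calls prevailed also hold short mRNAs. Of 43 tested genes of the secretory pathway, 22 were lower against 3 higher, and the median was -1.09 at a median coding length of 861 nt. SSS1 (YDR086C), a subunit of the Sec61 channel, had 36.7, 20.0 and 81.4 scaled CPM in Hpr1-PrA pulldowns and 223, 539 and 348 in no tag pulldowns (log2 fold change -3.10 ± 0.45 (SE), adjusted p = 8.98e-08). SPC3, of the signal peptidase, was lower as well (log2 fold change -2.23 ± 0.33 (SE), adjusted p = 1.52e-07), as was SOP4, which assists export of membrane proteins from the endoplasmic reticulum (log2 fold change -2.30 ± 0.41 (SE), adjusted p = 5.49e-06). The lower calls of this list numbered 14 with median-ratio factors and 7 with total counts, where 10 members were higher.

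Short mRNAs of the vacuolar proton pump and of mitochondria stood on the same side. The V-ATPase had 8 of 16 tested subunits lower and 0 higher, with a median of -1.07, and with total counts 1 was lower. VMA4 had 257, 174 and 448 scaled CPM in Hpr1-PrA pulldowns and 1139.5, 883 and 916 in no tag pulldowns (log2 fold change -1.78 ± 0.29 (SE), adjusted p = 8.74e-07). Mitochondrial import genes had 8 of 17 tested members lower and 1 higher, with PAM17, of the import motor, at -2.19 ± 0.40 (SE, edgeR adjusted p = 1.01e-05). Nuclear genes of oxidative phosphorylation had 6 of 21 lower and 4 higher, with COX12, a subunit of cytochrome c oxidase, at -2.44 ± 0.54 (adjusted p = 2.26e-04). With total counts these 2 lists had 3 lower and 3 higher, and 1 lower and 6 higher.

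Of the other lower genes, REE1, which takes part in enolase regulation, had 12.2, 20.0 and 30.5 scaled CPM in Hpr1-PrA pulldowns and 246, 194 and 158 in no tag pulldowns (log2 fold change -3.20 ± 0.61 (SE), adjusted p = 2.08e-05). POL30, the sliding clamp PCNA, had 36.7, 66.8 and 91.6 scaled CPM in Hpr1-PrA pulldowns and 469, 302 and 221 in no tag pulldowns (log2 fold change -2.34 ± 0.42 (SE), adjusted p = 7.90e-06). HOM6, homoserine dehydrogenase, had 306, 374 and 326 scaled CPM in Hpr1-PrA pulldowns and 1497, 1745 and 1106 in no tag pulldowns (log2 fold change -2.11 ± 0.26 (SE), adjusted p = 2.55e-09). In none of these genes did the libraries of the groups overlap. PFY1, the actin-binding protein profilin, was lower (log2 fold change -2.16 ± 0.37 (SE), adjusted p = 6.70e-06), within an actin and cytoskeleton list of 32 tested genes with 9 lower and 4 higher. TIF1, an eIF4A gene whose copy TIF2 shares its sequence, was lower (log2 fold change -2.46 ± 0.36 (SE), adjusted p = 9.84e-08).

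Length did not order every list. Aminoacyl-tRNA synthetases, long genes with a median coding length of 1824 nt, had 7 of 21 tested members lower and 1 higher, with a median of -0.80. With median-ratio factors or total counts 0 members were lower, and 2 and 3 were higher. DPH2, a diphthamide synthesis gene of 1605 nt, had 12.2, 13.4 and 10.2 scaled CPM in Hpr1-PrA pulldowns and 156, 108 and 63.2 in no tag pulldowns (log2 fold change -3.13 ± 0.84 (SE), adjusted p = 0.00211).

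**Figure D4:**
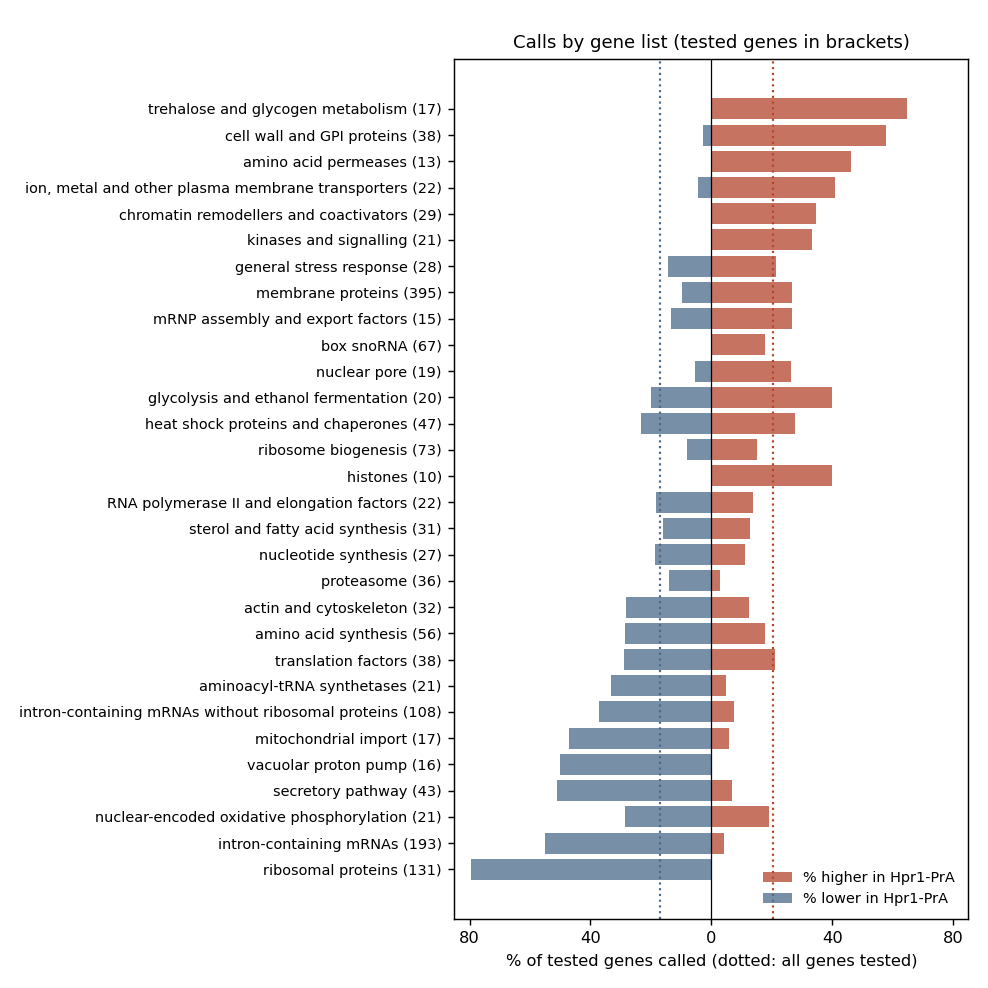
Percentage of tested genes called higher (right) and lower (left) in the Hpr1-PrA pulldown against no tag for 30 lists, with the number of tested genes in brackets and dotted lines at the 20.5% and 17.0% of all tested genes. Trehalose and glycogen metabolism (11 of 17 higher) and ribosomal proteins (104 of 131 lower) mark the ends.

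In yeast, introns are few and lie mostly in short, highly expressed genes, and their ends follow a strict consensus, with GTATGT at the 5′ splice site and TACTAAC at the branch point. Of 193 tested genes with an intron in the coding sequence, 106 were lower (54.9%), 8 were higher and the median was -1.44. Without ribosomal proteins, lower calls fell on 40 of 108 and higher calls on 8 (median -0.82), against 363 lower and 550 higher of 2623 genes without an intron, with a median of 0.30. With total counts 9 of the 108 were lower and 20 higher. The gap differed by length, for among genes of 1000 nt or more, 2 of 27 with an intron were lower and 7 higher (median 0.58), against 0.69 in 1630 genes without. Among genes under 1000 nt, 38 of 81 were lower (46.9%), against 282 of 993 (28.4%), with medians of -1.02 and -0.49.

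The 5′ ends of the introns of named genes, from the start of the intron and with the splice site hexamer in capitals, show how little they differ between genes at either end of the fold changes, the first 3 being of genes called lower, the next 2 of genes called higher and the last of the uncalled YRA1.
RPS21A: GTATGTtcgagaaatctata
RPL31A: GTATGTgaaagaataaaaat
RUB1: GTATGTtcattcagtggtta
GCR1: GTATGAtcataacacgcatt
MPT5: GTATGTattatctcttaatt
YRA1: GTATGTtaatacgtgaaatg

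These stretches lie in the R64 genome at chrXI:551681-551700, chrIV:322283-322302, chrIV:733756-733775 (minus strand), chrXVI:412262-412281, chrVII:167355-167374 and chrIV:1236843-1236862, in the order printed, on the plus strand unless stated. From the branch point (capitals) to the 3′ end of the intron, the same genes read as follows, RPS21A and YRA1 being left out because the exact heptamer is not in their introns.
RPL31A: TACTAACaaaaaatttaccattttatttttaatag
RUB1: TACTAACgaccaggatag
GCR1: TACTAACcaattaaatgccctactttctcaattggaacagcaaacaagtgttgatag
MPT5: TACTAACacaacattcttttattcaatcag

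They lie at chrIV:322669-322703, chrIV:733703-733720 (minus strand), chrXVI:412956-413012 and chrVII:167965-167994. RUB1, a ubiquitin-like modifier with the shortest intron printed here (73 nt), had 24.5, 33.4 and 20.4 scaled CPM in Hpr1-PrA pulldowns and 112, 237 and 94.8 in no tag pulldowns (log2 fold change -2.46 ± 0.65 (SE), adjusted p = 0.00199), and was not called without no tag replicate 2 (-1.91). GCR1, the activator of glycolytic genes, has an intron of 751 nt that starts with GTATGA, and had 22, 28 and 13 counts in Hpr1-PrA pulldowns and 1, 1 and 1 in no tag pulldowns, a ratio of 7.82 (95% counting interval 2.56 to 39.0). MPT5, a PUF-family repressor, with an intron of 640 nt, had a ratio of 5.71 (95% counting interval 1.84 to 28.7), and its fitted log2 fold change was 1.82 and not called without no tag replicate 2. Introns starting with GTATGT were 6 of 8 in higher genes and 87 of 113 in lower genes (77.0%), against 205 of 281 in the genome (73.0%). TACTAAC was present in 6 of 8 introns of higher genes and 105 of 113 of lower genes (92.9%), against 232 of 281 in the genome (82.6%), both searched on the transcribed strand only. A match is a string of letters and no measure of splicing.

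Transfer RNA genes took a larger share of the counts in the Hpr1-PrA pulldown than in the no tag pulldown. Polymerase III makes them, they carry no cap or poly(A) tail in the mature form, and several carry an intron beside the anticodon. Which forms of these RNAs gave 3′ tags, mature or precursor, was not tested. The shares below are therefore of counts and no measure of tRNA content. The table holds 275 tRNA genes and 41 could be tested. Of these 33 were higher and 0 lower, against 20.5% and 17.0% of all tested genes, with a median log2 fold change of 2.91. No tested tRNA gene had more than 27 counts over the no tag pulldowns together (SUF2). Such genes could enter through the tagged libraries, where they were high, and a lower call was hardly possible. The median also holds raw fits of genes with few or 0 no tag counts, such as YNCP0001C at 6.67. Summed over all of them, tRNA genes had 1251, 2607 and 1421 counts in Hpr1-PrA pulldowns and 168, 143 and 83 in no tag pulldowns. These are 1.63% ± 0.209 of gene counts in Hpr1-PrA pulldowns and 0.220% ± 0.0453 in no tag pulldowns (SD, n = 3 each), and the groups did not overlap. In total RNA the share was 0.280% in both strains, and the Cbp80-PrA pulldown held 1.86%. Against Cbp80-PrA, 2 of the 41 genes were higher and 7 lower, with a median of -0.08, in a comparison that shares the Hpr1-PrA libraries.

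Most tRNA genes exist in copies with the same mature sequence, and reads that fit several places are not in the gene counts. The mature sequence of 254 genes occurs more than once in the genome, of which 34 were tested and 26 were higher, and that of 21 genes occurs once, of which 7 were tested and 7 were higher. All 6 tested genes for leucine, all 6 for lysine and all 5 for proline were higher, against 3 of 7 for serine. The serine genes not called had 25, 16, 9 and 5 counts over the Hpr1-PrA pulldowns together. The median log2 fold change was 2.54 for serine and 2.50 for lysine. Of 15 tested tRNA genes with an intron 14 were higher, as were 19 of 26 without. A pair of proline genes that shared their sequence and a pair of leucine genes that differed only inside the intron (capitals) show what a count can tell apart.
SUF2: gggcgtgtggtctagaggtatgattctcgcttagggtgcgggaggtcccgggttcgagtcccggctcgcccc
SUF10: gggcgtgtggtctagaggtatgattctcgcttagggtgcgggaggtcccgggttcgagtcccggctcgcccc
SUP56: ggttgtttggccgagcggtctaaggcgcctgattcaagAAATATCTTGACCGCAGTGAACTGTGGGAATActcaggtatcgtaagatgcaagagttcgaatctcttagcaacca
YNCG0008W: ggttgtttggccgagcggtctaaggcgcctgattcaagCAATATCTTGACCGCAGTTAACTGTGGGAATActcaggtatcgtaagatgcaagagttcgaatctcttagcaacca

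SUF2 lies at chrIII:123577-123648 and SUF10 at chrXIV:631846-631917, both on the minus strand, and their 72 nt have 0 different bases. SUF2 had 138, 301 and 156 counts in Hpr1-PrA pulldowns and 10, 7 and 10 in no tag pulldowns, and SUF10 had 58, 148 and 85 counts in Hpr1-PrA pulldowns and 7, 1 and 3 in no tag pulldowns. With identical genes, such counts can differ only through flanking sequence in the reads. The fitted log2 fold changes were 2.98 and 3.25. SUP56 at chrI:181141-181254 and YNCG0008W at chrVII:205521-205634, both on the plus strand, have 114 nt with 2 different bases, both in the intron, and the same mature sequence of 82 nt. Their log2 fold changes were 2.96 and 2.74.

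Of the other non-coding RNAs, 12 of 67 tested box snoRNAs were higher (17.9%) and 0 lower, with a median of 0.54. All tested genes had 20.5% higher and 17.0% lower, with a median of 0.24, so the share called higher was no larger here. The box snoRNAs took 1.54% ± 0.13 of gene counts in Hpr1-PrA pulldowns and 0.723% ± 0.183 in no tag pulldowns (SD, n = 3 each). As for tRNA, the form of these RNAs that gave 3′ tags was not tested. SNR6, the U6 RNA of the spliceosome and a polymerase III product, had 108, 239 and 147 counts in Hpr1-PrA pulldowns and 11, 12 and 7 in no tag pulldowns (log2 fold change 2.59 ± 0.31 (SE), adjusted p = 5.63e-10). Among 16 tested RNAs of other kinds, 7 were higher, with SCR1, the RNA of the signal recognition particle, at a log2 fold change of 1.99 and RPR1, the RNA of ribonuclease P, at 1.11. TLC1, the telomerase RNA, and LSR1, the U2 RNA, were not called, at -0.57 and -0.81. Of 5 tested spliceosomal RNAs 2 were higher, SNR6 and SNR7-L, a U5 RNA whose log2 fold change was 1.73 to 3.04 with 1 library left out. Mitochondrially encoded RNA, which is kept apart from nuclear proteins in the living cell, made up 0.0894% of gene counts in Hpr1-PrA pulldowns and 0.166% in no tag pulldowns, against 1.61% in Hpr1-PrA and 1.54% in no tag total RNA.

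**Figure D5:**
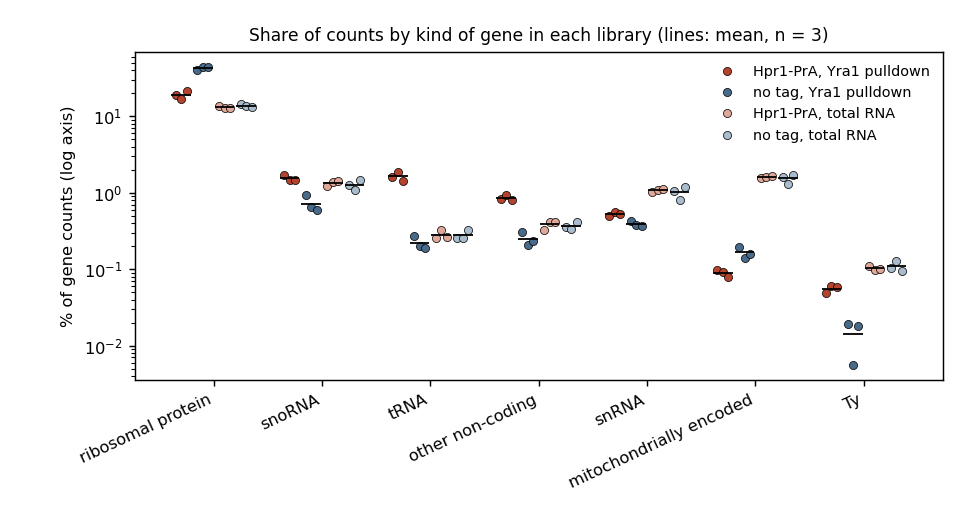
Share of gene counts (y axis, %, log axis) by kind of gene in each library of the Hpr1-PrA and no tag Yra1 pulldowns and of total RNA from the same strains, with lines for the mean (n = 3). tRNA averages 1.63% in Hpr1-PrA pulldowns and 0.220% in no tag pulldowns, ribosomal protein mRNA 19.1% and 42.9%, and the total RNA points of both strains lie together.

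Total RNA was compared between the strains to look for differences present before any pulldown. Of 4792 genes tested there, 0 were called by edgeR and 0 by DESeq2, with 196 and 74 at an unadjusted p under 0.05. With 3 libraries per strain, a lack of calls does not show that the strains were the same. HPR1 mRNA, from the gene tagged only in the Hpr1-PrA strain, had 95, 111 and 91 counts in Hpr1-PrA total RNA and 96, 98 and 71 in no tag total RNA. A fit over the 12 pulldown and total RNA libraries tested the difference between the pulldown effect and the total RNA effect, and found 703 of 4607 genes higher (15.3%) and 446 lower (9.68%). Of the 615 genes higher in the pulldown, 610 entered this fit, and 522 were higher and 0 lower in it. Of the 509 lower genes, 508 entered, and 393 were lower and 0 higher. For PMA1 the difference was 3.67 on the log2 scale (adjusted p = 1.04e-22), and for SSS1 -3.18 (adjusted p = 5.29e-09). With total counts the share of higher calls in this fit was 90.5%, against 61.2% with TMM.

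The Cbp80-PrA pulldown sets the Hpr1 RNPs against cap-bound RNPs that also hold Yra1. Of the 2997 genes, 574 were higher with Hpr1-PrA than with Cbp80-PrA (19.2%) and 687 lower (22.9%), in all 42.1%, and the share of higher calls was 45.5%, against 30.8% with median-ratio factors, 31.2% with DESeq2 and 49.3% with total counts. This comparison and the previous ones share the Hpr1-PrA libraries. The order by coding length was present again but flatter, with medians of -0.39 under 500 nt, 0.09 from 1500 to under 2000 nt and 0.69 at 3000 nt or more. Set against no tag, the Cbp80-PrA pulldown had medians of -0.67, 0.65 and 0.32 in these 3 classes, in a comparison that shares the no tag libraries, where Hpr1-PrA had -1.17, 0.77 and 0.96. The order against Cbp80-PrA varied with the level in total RNA. From the shortest to the longest class, medians went from 0.23 to 0.98 in the group of highest level and from -0.32 to 0.44 in the middle group. In the group of lowest level they were -0.95 and -0.76, and 3.57% of its longest genes were higher and 35.7% lower.

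Ribosome biogenesis genes had 38 of 73 members higher with Hpr1-PrA than with Cbp80-PrA and 1 lower, with a median of 1.01. Chromatin genes had 17 of 29 higher and 3 lower, and ribosomal proteins 40 of 131 higher and 8 lower. THO and TREX genes had 5 of 7 higher and 1 lower, with YRA1 at a log2 fold change of 2.27 ± 0.37 (SE, edgeR adjusted p = 5.74e-06), SUB2 at 1.56 ± 0.30 (adjusted p = 2.77e-05) and MFT1 at 1.74 ± 0.25 (adjusted p = 3.02e-08).

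PMA1 had 432, 1049 and 598 counts in the Cbp80-PrA pulldowns and was higher with Hpr1-PrA (2.11 ± 0.23, SE, adjusted p = 9.62e-12). HXT3 and SCW11, which stood out against no tag, were not called against Cbp80-PrA, at 0.43 ± 0.22 and -0.15 ± 0.24 (SE; adjusted p = 0.0887 and 0.611). Among 395 tested membrane protein genes, 37 were higher and 112 lower against Cbp80-PrA. Cell wall genes had 0 of 38 higher and 9 lower, trehalose and glycogen genes 0 of 17 higher and 5 lower, and general stress genes 1 of 28 higher and 10 lower. All tested genes had 19.2% higher and 22.9% lower, and the share of cell wall genes called lower was close to that. The box snoRNAs, capped when nascent, had 59 of 67 lower with Hpr1-PrA than with Cbp80-PrA, with a median of -2.13, and took 1.54% of gene counts with Hpr1-PrA and 7.67% with Cbp80-PrA.

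Promoter motifs were counted in the called genes and in all genes. In the RefSeq promoter windows of R64, from 250 bases before to 50 after each gene's start, and on both strands, the stress element CCCCT was present in 22.6% of higher genes and 20.3% of lower genes, against 21.9% of all 5912 nuclear coding genes. The heat shock element TTCNNGAA was present in 14.2% of higher and 14.2% of lower genes, against 13.1% of all. GATGAG, the core of the ribosome biogenesis PAC motif, was present in 19.2% of higher and 20.1% of lower genes, against 19.9% of all, and AAAATTTT of the RRPE motif in 12.2% of each, against 9.17% of all and 12.7% of tested genes. None of the 4 motifs contains another, and a match is a string of letters, not a bound site.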

How the data were processed

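Per the labels and the study's methods, the authors made 3′ tag libraries (Lexogen QuantSeq) of 3 biological replicates per group, the 6 pulldown libraries compared here being run on 1 sequencer type. They extracted molecular identifiers and removed PCR duplicates with UMI-tools 1.0.1, trimmed with bbduk, removed rRNA with bbsplit, aligned to R64 with STAR 2.7.10a and counted with HTSeq 2.0.2 (intersection-nonempty), and deposited raw counts per gene; the strand setting is not given in the sources used here. The authors' DESeq2 1.38.2 comparisons were not used. The table holds 6461 genes, of which 6458 matched the RefSeq annotation of R64 by ID. Its 5 summary lines were left out; reads outside genes were 39.9% to 43.5% of all reads in the table in Hpr1-PrA and 46.0% to 49.6% in no tag pulldowns. A further 3 lines were not analysed here.

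Genes were tested with edgeR 4.0.16 (limma 3.58.1, R 4.3.3): filterByExpr, TMM factors (1.11 to 1.20 in Hpr1-PrA, 0.69 to 0.77 in no tag), the robust quasi-likelihood test over 15 pulldown libraries with a mean per group, and Benjamini-Hochberg adjustment over all tested genes; a call needed an adjusted p below 0.05 with a log2 fold change over 1 or under -1. SE is the log2 fold change divided by the root of F. The biological coefficient of variation was 0.194 in the pulldowns and 0.0867 in total RNA. Where no tag had 1 to 3 counts in all, the ratio of scaled counts with an exact 95% interval stands in for the fold, and at 0 a bound with 3 counts over the group; intervals and bounds cover counting error only. Shares were compared by exact permutation tests. DESeq2 1.42.0, other scalings, no filter, a test against the fold threshold, fewer libraries and a replicate block were tried. Near-identical copies came from BLAST+ 2.17.0 (90% identity over 100 nt), coding lengths, introns, promoters and hydrophobic stretches (mean Kyte-Doolittle value of at least 1.6 over 19 residues) from RefSeq, with Python 3.11.15. The scripts were tested on simulated data.

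Members and gene lists were chosen with earlier results of these data known. Named genes were, among called nuclear coding genes of at least 50 CPM with no overlap between groups, the 12 highest and 12 lowest, then up to 2 called members per list and direction and the THO, TREX and study genes; the text gives a part of these. MFA2, SAG1, HIS3, the other markers, SCR1, RPR1, TLC1, LSR1, and the tRNA genes are outside that rule. TAO3 and REA1 belong to the study genes. Splits by level, by length within other classes and without ribosomal proteins were added after seeing the data.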

Additional observations from a re-analysis of the deposited data

Results flagged for a closer look

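In the fit over pulldown and total RNA libraries, the difference between Hpr1-PrA and no tag was itself tested between the kinds of library. It was higher in the pulldown than in total RNA for 703 genes and lower for 446, of 4607 tested, by edgeR's quasi-likelihood test (adjusted p below 0.05, log2 difference beyond 1 in either direction). No group held 4 or more libraries, so single libraries were not examined for outlying values in this way.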

How the results depend on the processing

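Against 615 higher and 509 lower genes in the Hpr1-PrA pulldown against no tag, total counts gave 1178 higher and 139 lower, median-ratio factors 336 lower, DESeq2 347 lower, and a test against the fold threshold 214 higher and 122 lower. Against 574 and 687 for Hpr1-PrA over Cbp80-PrA, the fold threshold test gave 201 and 299, and no filter 1223 lower. Against 1014 and 751 for Cbp80-PrA over no tag, no filter gave 1754 higher, and 465, 442, 468 and 457 were lower with median-ratio factors, total counts, DESeq2 and the fold threshold test, with 57.5% of calls higher in the main test and 73.5%, 74.8% and 72.9% in the first 3 of these. Against 703 and 446 in the fit with total RNA, total counts gave 1390 higher and 146 lower and the fold threshold test 204 and 95. Leaving out 1 library gave 443 to 708 higher and 342 to 468 lower against no tag, 442 to 615 and 653 to 900 against Cbp80-PrA, 974 to 1029 and 678 to 777 for Cbp80-PrA over no tag, 450 to 726 and 318 to 474 in the fit with total RNA (450 without no tag replicate 2), and 0 to 0 in total RNA. Correlations of deviations were 0.239, -0.094 and 0.224 between libraries of the same replicate number, and -0.351 to 0.184 between those of different numbers. These few values do not settle whether replicate numbers pair the libraries. With the replicate block in only the groups compared, 436 genes were higher and 382 lower of 1517, against 430 and 370 without the block. Of 110 named calls, 65 held in every alternative but the fold threshold test, which kept 61; without no tag replicate 2, 31 were lost. With 1 library left out YRA1 ranged from -0.0020 (no tag replicate 1) to 1.08. Of the list and class medians relative to all genes, these changed sign: THO and TREX without no tag replicate 1 (-0.0074, up to 0.86 with another library left out); ribosome biogenesis (0.15 and, with the replicate block, 0.15) and sterol and fatty acid synthesis (0.11 and 0.13) with only the groups compared; with no filter, the class from 1000 to under 1500 nt (-0.0097, or -0.0073 without ribosomal proteins), 1 hydrophobic stretch (-0.048), 2 to 5 stretches (-0.025) and genes with no intron (-0.079, or -0.055 without ribosomal proteins); 2 to 5 stretches without no tag replicate 1 (-0.028, up to 0.14 with another left out); and no intron without no tag replicate 2 (-0.0015) or 3 (-0.0032, up to 0.033 with another left out). With 1 library left out, further list medians lay on both sides of that of all genes. These were histones (-0.60 to 0.21), glycolysis and ethanol fermentation (-0.16 to 0.19), and heat shock proteins and chaperones (-0.25 to 0.26). The cause of these changes was not tested. In all, 1230 of the gene fold changes recomputed stayed on their side of the threshold, 177 no longer passed and 11 passed anew. Depth limits genes of few counts, since 39 tested genes had 0 counts in all no tag pulldowns.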
